A study of Homo sapiens with 2 samples.

Results

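MYC (ENSG00000136997) is a transcription factor that pairs with MAX and binds E-box sequences near the start of many genes. It drives growth by raising the genes of ribosome assembly, nucleotide synthesis and protein folding, and the MXD proteins, MNT and MGA compete with it for MAX. In B-cell precursors MYC is high in the dividing stage that follows pre-B-cell receptor assembly, and it is often raised in lymphoid leukemia. MYC was taken as the gene carrying that symbol, which was 1 of the 32738 genes counted. It is described here by its level, its spread between cells, its course along the cell cycle and the genes that varied with it.

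The cells were Nalm-6, an established human line grown from a precursor-B lymphoblastic leukemia. Both groups carried an inducible Tet-On construct and both had received 500 ng/ml doxycycline for 24 h. In the ETV6-RUNX1 group the construct held the fusion, which its source label calls TEL-AML1. In the LUC control group it held luciferase. There was 1 single-cell library of each, so differences are between a pair of libraries without replicates. All intervals are exact 95% intervals. They cover counting error only. Those of levels and ratios take each UMI (unique molecular identifier, a tag that marks 1 captured transcript) as independent, and spread between cells is not in them. Those of shares of cells take each cell as independent. Spread between cultures is in none of them, which makes them too narrow.

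The ETV6-RUNX1 library gave 2267 cells with a median of 19219 UMIs, and the LUC control library gave 1870 cells with a median of 22535.5. Of 11 B-cell precursor markers in the matrices, 11 reached 10 CPM (UMIs scaled to a common library total) in both libraries. Markers of T and NK cells and of erythroid cells and megakaryocytes all stayed under 10 CPM. Of the myeloid list only CST3 passed it, at 11.5 CPM with ETV6-RUNX1 and 10.1 CPM in the control, and of the epithelial and fibroblast list only PDGFRA, at 68.1 CPM with ETV6-RUNX1 and 66.4 CPM in the control. The libraries shared 16 barcodes, 7 of them kept in both.

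MYC was detected in both libraries and was lower with ETV6-RUNX1. It had 4582 UMIs in the ETV6-RUNX1 cells, or 104 CPM (101 to 107), against 5784 UMIs in the LUC control cells, or 135 CPM (132 to 139). The log2 ratio of ETV6-RUNX1 over LUC control was -0.38 (-0.43 to -0.32), so the level was 1.30-fold lower. This is short of the 1.5-fold size used here to call a gene, which 39 of 5954 measured genes passed downward (0.655%) and 11 passed upward (0.185%). With TMM scaling 32 genes passed downward and 17 upward, and MYC was still short of it. Measured means 10 CPM or more in either library. The median of all measured genes was -0.04 and 90% of them lay between -0.27 and 0.19. A lower ratio than that of MYC was seen for 125 genes, or 2.10%.

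The main partner of MYC lay near 0 and 3 of its antagonists above 0. MAX, the shared dimer partner, was at 47.0 CPM with ETV6-RUNX1 and 48.9 CPM in the control, a log2 ratio of -0.06 (-0.14 to 0.03). Among the antagonists that compete for MAX, MXI1 had 11.8 CPM in the ETV6-RUNX1 library and 8.58 CPM in the LUC control library, with a log2 ratio of 0.46 (0.27 to 0.66). MXD4 had 13.7 CPM with ETV6-RUNX1 and 10.7 CPM in the control (0.35, 0.18 to 0.53), and MXD3 had 38.9 CPM with ETV6-RUNX1 and 31.9 CPM in the control (0.29, 0.18 to 0.39). These 3 log2 ratios lay above 0 by more than counting error. Of the 8 measured genes of the MYC network, MYC itself left out, 0 reached 1.5-fold (all measured genes, 0.655% lower and 0.185% higher). Of these 8, 4 lay below 0, and the median was -0.01. MXI1 is among the 8 only through its level with ETV6-RUNX1, where it was higher, so these values depend on the floor. The median was 0.01 at a floor of 1 CPM and -0.06 at a floor of 50 CPM.

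The intervals of the other antagonists held 0. MXD1 was at 1.71 CPM with ETV6-RUNX1 and 1.73 CPM in the control. MNT was at 9.40 CPM with ETV6-RUNX1 and 8.65 CPM in the control, and MGA at 8.90 CPM with ETV6-RUNX1 and 8.89 CPM in the control. The intervals of the parallel MLX branch also held 0, with MLX at 43.2 CPM with ETV6-RUNX1 and 44.2 CPM in the control. MLXIP was at 55.2 CPM with ETV6-RUNX1 and 54.7 CPM in the control. ZBTB17, through which MYC represses genes, had a log2 ratio of 0.22 (0.00 to 0.44), MYCBP one of -0.14 (-0.24 to -0.03) and MYCBP2, a ubiquitin ligase, one of -0.13 (-0.19 to -0.07).

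No other member of the MYC family was found at more than a trace. MYCN had 0 UMIs in both libraries, which allows up to 0.0683 CPM with ETV6-RUNX1 and 0.0702 CPM in the control, as a limit of 3 counts. MYCL had 13 UMIs in the ETV6-RUNX1 cells and 16 in the LUC control cells. MLXIPL, of the MLX branch, had 5 in the ETV6-RUNX1 cells and 9 in the LUC control cells.

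The difference between libraries was also read in sets of cells. Cells were thinned at random to 8700 UMIs each so that their depth was equal, which left 2043 ETV6-RUNX1 and 1786 LUC control cells. They were then ordered by cell-cycle position, as described further on, and by the summed UMIs of gene groups. The log2 ratio of MYC lay between -0.73 and -0.17 over 8 cell-cycle positions. Over quintiles of ribosome biogenesis UMIs, set over both libraries together, it lay between -0.34 and -0.13. Every value of these 13 was below 0, and 1 interval, that of the second quintile, reached above 0.

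The ratio also varied with the total UMIs of a cell. In quintiles of total UMIs set over both libraries, MYC was at 108, 99.4, 95.02, 106 and 113 CPM with ETV6-RUNX1, against 169, 133, 130, 125 and 138 CPM in the control. The log2 ratios were -0.65, -0.42, -0.46, -0.23 and -0.29. The part of depth in the difference between libraries was not tested.

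**Figure D1:**
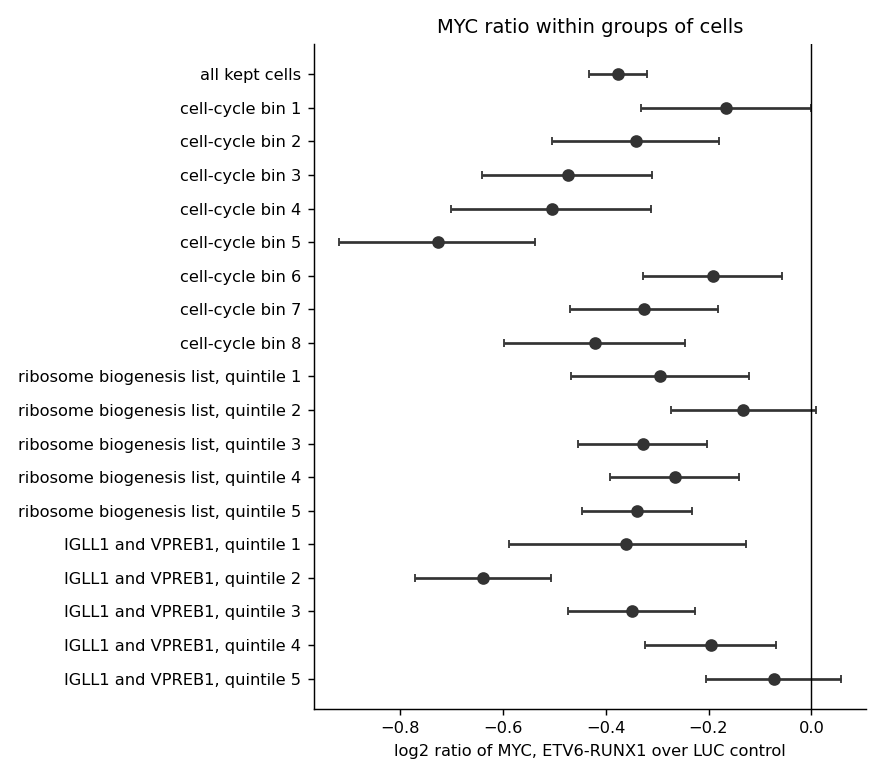
Log2 ratio of the MYC level, ETV6-RUNX1 over LUC control (horizontal axis), in all kept cells, in 8 cell-cycle bins and in quintiles of cells set over both libraries. Points are ratios of summed UMIs and bars are 95% counting intervals. The value over all cells is -0.38, and the value nearest 0 is that of the quintile with the most IGLL1 and VPREB1 UMIs, at -0.07.

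MYC varied between cells by more than counting. At 8700 UMIs per cell it averaged 0.917 UMIs per ETV6-RUNX1 cell and 1.22 per LUC control cell. Its variance was 1.80 times the mean with ETV6-RUNX1 and 1.75 times in the control, where counting alone gives 1. Genes of similar mean, within 2-fold of MYC, had a median ratio of 1.08 in both libraries. Of these, 16 of 1323 stood above MYC with ETV6-RUNX1, and 18 of 1052 did so in the LUC control. Among the highest in both were the immediate-early genes FOS and JUN, the mitotic gene UBE2C and the transcriptional regulator ID3.

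The excess showed at both ends of the distribution. No MYC UMI was seen in 52.2% (49.99 to 54.4) of ETV6-RUNX1 cells, where a Poisson draw at the same mean gives 40.0%. In LUC control cells the share was 42.2% (39.9 to 44.5), against 29.5% for Poisson. At the upper end, 2.06% of ETV6-RUNX1 cells and 3.75% of LUC control cells had 5 or more UMIs, where Poisson gives 0.254% for ETV6-RUNX1 and 0.834% for the control. The highest cell had 9 UMIs with ETV6-RUNX1 and 8 in the control. The 205 ETV6-RUNX1 cells with most MYC, 10% of them, held 42.3% of its UMIs, and the top 179 LUC control cells held 36.8%.

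Counting accounts for 55.5% of the variance of MYC in ETV6-RUNX1 cells and 57.2% in LUC control cells. Taking it off leaves a coefficient of variation between cells of 0.935 with ETV6-RUNX1 and 0.783 in the control. A cell without a MYC UMI is not a cell without MYC, since in the same cells at full depth the share without one was 34.2% with ETV6-RUNX1 and 23.2% in the control. The cells are of a single line, so no cell type that should lack MYC was at hand to measure free RNA.

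**Figure D2:**
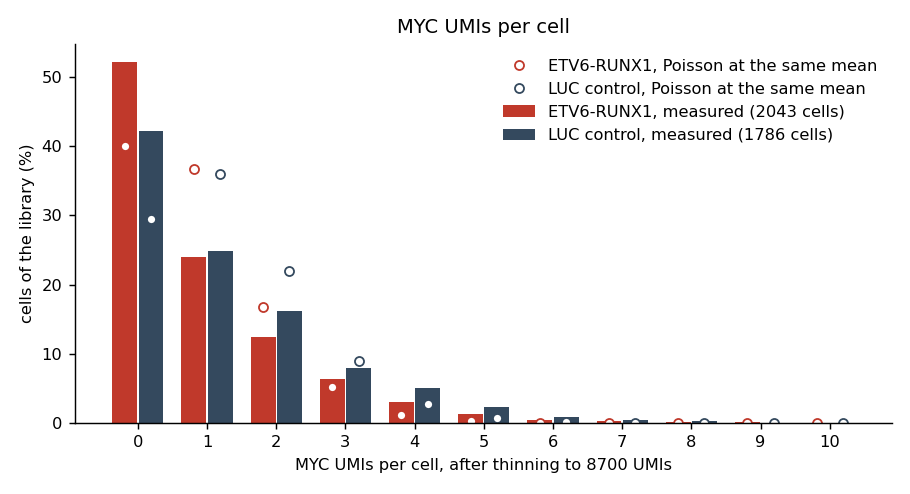
Share of cells (vertical axis, percent of the library) by number of MYC UMIs after thinning to 8700 UMIs per cell. Bars are measured shares and open circles the Poisson shares at the same mean, with ETV6-RUNX1 left of LUC control. In both libraries measured bars stand above the circles at 0 and at 4 to 8 UMIs, and below them at 1 and 2. At 3 UMIs the bar is above the circle with ETV6-RUNX1 and below it in the control.

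MYC differed along the cell cycle, with its low in cells rich in histone transcripts and a rise from there to cells rich in mitotic transcripts. Cells were placed by the angle of their S and G2/M scores about the medians of both, starting from cells low in both, and cut into 8 bins of equal cell number over both libraries. HIST1H4C, a histone H4 gene that dividing cells switch on during DNA synthesis, and the mitotic genes CCNB1 (cyclin B1) and PLK1 were not used in the scores. HIST1H4C was highest in bin 5, at 7496 CPM with ETV6-RUNX1 and 8369 CPM in the control. In bin 6 it was still at 4944 CPM with ETV6-RUNX1 and 5046 CPM in the control. That is above bin 3, at 4031 CPM with ETV6-RUNX1 and 3584 CPM in the control. CCNB1 was highest in bin 6, at 138 CPM with ETV6-RUNX1 and 134 CPM in the control.

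From bin 1 to bin 8, MYC was at 123, 118, 105, 74.8, 66.5, 135, 113 and 97.4 CPM in ETV6-RUNX1 cells. In LUC control cells it was at 138, 149, 146, 106, 110, 154, 141 and 130 CPM. Both libraries had the low in bins 4 and 5 and the highest value in bin 6. In the control the interval of bin 6 (144 to 164) overlapped those of bin 2 (139 to 161) and bin 3 (136 to 156). It also overlapped those of bin 1 (127 to 150) and bin 7 (133 to 151). With ETV6-RUNX1 the interval of bin 6 (126 to 144) overlapped those of bin 1 (113 to 133) and bin 2 (108 to 128). The high of bin 6 thus stands against bins 4 and 5, not against every other bin. The highest bin stood 2.03-fold above the lowest with ETV6-RUNX1 and 1.45-fold in the control.

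Bins 4 and 5 lay below bins 1 and 2 by a log2 difference of -0.78 (-0.91 to -0.64) in ETV6-RUNX1 cells and -0.42 (-0.53 to -0.30) in LUC control cells. Bin 6 lay above bins 4 and 5 by 0.94 (0.80 to 1.08) in ETV6-RUNX1 cells and by 0.51 (0.38 to 0.64) in LUC control cells. With cells thinned to 5000 UMIs, bins 4 and 5 lay below bins 1 and 2 by -0.40 with ETV6-RUNX1 and by -0.52 in the control. Which library had the deeper low thus differed between the settings. The setting of 5000 UMIs also takes in shallower cells and another random draw, and the cause of the change was not tested. At 5000 UMIs bin 6 lay above bins 4 and 5 by 0.56 with ETV6-RUNX1 and by 0.49 in the control. With another random thinning at 8700 UMIs this was 1.02 with ETV6-RUNX1 and 0.34 in the control. The log2 ratio between libraries was closest to 0 in bins 1 and 6, at -0.17 and -0.19, and furthest in bin 5, at -0.73 (-0.92 to -0.54). That it differs between bins was not tested.

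**Figure D3:**
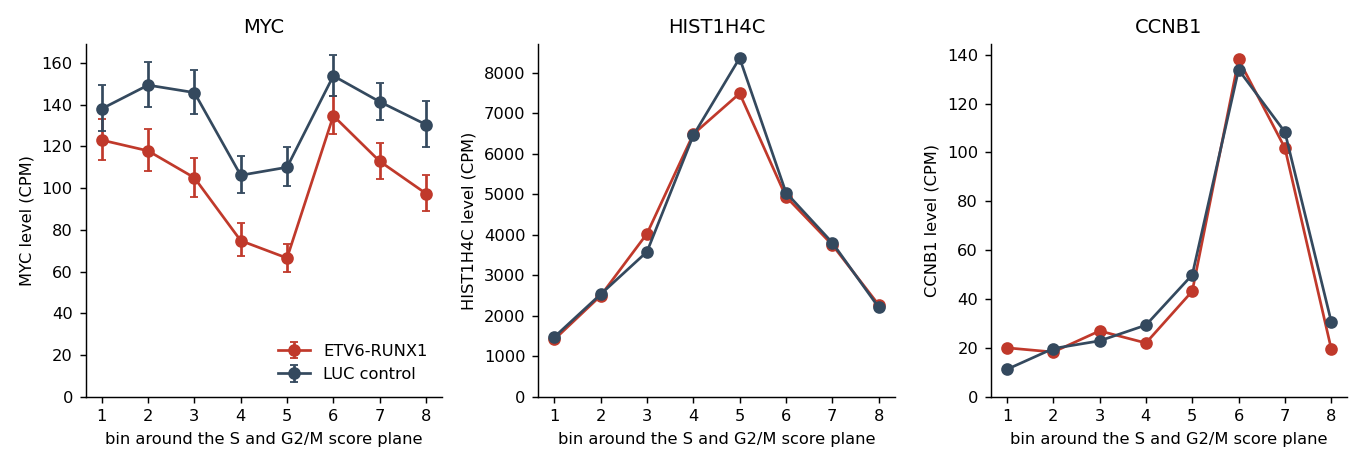
Level in CPM (vertical axis, linear from 0) of MYC, HIST1H4C and CCNB1 over 8 bins of cells around the plane of S and G2/M scores, ETV6-RUNX1 in red and LUC control in dark blue. Bars on MYC are 95% counting intervals. MYC is lowest in bins 4 and 5, where HIST1H4C is highest. Its highest value is in bin 6, where CCNB1 peaks and HIST1H4C is still above its level in bin 3. The MYC interval of bin 6 overlaps those of some earlier bins in both libraries.

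Calls of whole phases gave a coarser picture. In cells called G1, S and G2/M, MYC was at 127, 107 and 99.7 CPM with ETV6-RUNX1 and at 164, 148 and 131 CPM in the control, from thinned UMIs. G2/M lay below G1 by a log2 difference of -0.35 (-0.55 to -0.16) in ETV6-RUNX1 cells and -0.32 (-0.52 to -0.11) in LUC control cells. S lay below G1 by -0.25 (-0.46 to -0.05) with ETV6-RUNX1, and by -0.15 (-0.36 to 0.06) in the control, an interval that holds 0. From the UMIs before thinning in the same cells, G2/M lay below G1 by -0.35 with ETV6-RUNX1 and by -0.13 in the control, and S lay below G1 by -0.25 with ETV6-RUNX1 and by -0.04 in the control. The G2/M class held 54.8% of ETV6-RUNX1 and 54.1% of LUC control cells, and the G1 class only 12.3% and 9.57%. The G2/M class joins the low bin 5, the high bin 6 and bin 7. It also took in 55.2% of ETV6-RUNX1 and 62.6% of LUC control cells of bin 8. There CCNB1 was at only 19.6 CPM with ETV6-RUNX1 and 30.8 CPM in the control. Within 0.05 of a score cut lay 41.3% of ETV6-RUNX1 cells and 44.4% of LUC control cells. The log2 ratio between libraries in G1 cells was -0.37 from thinned UMIs and -0.18 from the UMIs before thinning.

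Cells with more transcripts for ribosome assembly had more MYC. Cells were ranked within each library by the summed thinned UMIs of a list of 52 ribosome biogenesis genes, and MYC was read from the UMIs before thinning. From the bottom to the top quintile, MYC was at 67.6, 95.6, 100.3, 114 and 137 CPM with ETV6-RUNX1, and at 92.0, 116, 133, 156 and 172 CPM in the control. It was higher at each step in both libraries, and top over bottom was a log2 difference of 1.02 (0.87 to 1.17) in ETV6-RUNX1 cells and 0.90 (0.77 to 1.03) in LUC control cells. Total UMIs per cell, ranked alike, gave 0.11 (-0.04 to 0.26) with ETV6-RUNX1, and -0.18 (-0.30 to -0.05) for the control.

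Cells with more histone transcripts had less MYC. Over 71 histone genes, MYC was at 143, 125, 103, 76.3 and 76.7 CPM from bottom to top with ETV6-RUNX1, and at 170, 166, 134, 99.0 and 111 CPM in the control. The top quintile lay below the bottom by -0.90 (-1.04 to -0.76) in ETV6-RUNX1 cells and by -0.62 (-0.74 to -0.50) in LUC control cells. Most histone transcripts lack the poly-A tail that this assay captures, and HIST1H4C held most of the counts.

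Ranking by the G2 and M list gave a curve with high ends. MYC was at 126, 104, 89.9, 79.8 and 125 CPM with ETV6-RUNX1, and at 154, 133, 126, 115 and 150 CPM in the control. The lowest and the highest quintile did not differ beyond counting error in either library. Ranking by chaperonins and other folding factors gave a top over bottom difference of 0.31 (0.17 to 0.45) in ETV6-RUNX1 cells and 0.36 (0.24 to 0.48) in LUC control cells.

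The summed UMIs of the surrogate light chain genes IGLL1 and VPREB1, which complete the pre-B-cell receptor, gave opposite directions in the 2 libraries. Gene by gene this was seen for IGLL1, whose Pearson r with MYC across cells was 0.0820 with ETV6-RUNX1 and -0.0413 in the control. For VPREB1 it was above 0 in both, at 0.0518 with ETV6-RUNX1 and 0.0341 in the control. MYC was at 89.5, 97.2, 101, 103 and 128 CPM from the lowest to the highest quintile of their summed UMIs with ETV6-RUNX1, a top over bottom difference of 0.52 (0.38 to 0.66). In the control it was at 145, 140, 125, 133 and 133 CPM, a difference of -0.12 (-0.24 to -0.01). The difference between the libraries was not tested. With another random thinning the value was 0.32 with ETV6-RUNX1 and -0.27 in the control.

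These genes themselves differ between the libraries, with IGLL1 at 1126 CPM with ETV6-RUNX1 and 1861 CPM in the control. Quintiles set over both libraries compare cells within the same range of UMIs of the pair, though the libraries may lie at different places within a range. In the lowest, with fewer than 8 UMIs of the pair, were 632 ETV6-RUNX1 and 73 LUC control cells, and the log2 ratio of MYC was -0.36 (-0.59 to -0.13). In the next 3 it was -0.64, -0.35 and -0.20. In the highest, with 259 ETV6-RUNX1 and 507 LUC control cells, MYC was at 124 CPM in ETV6-RUNX1 cells and 131 CPM in LUC control cells, and the log2 ratio of -0.07 (-0.20 to 0.06) has an interval that holds 0.

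**Figure D4:**
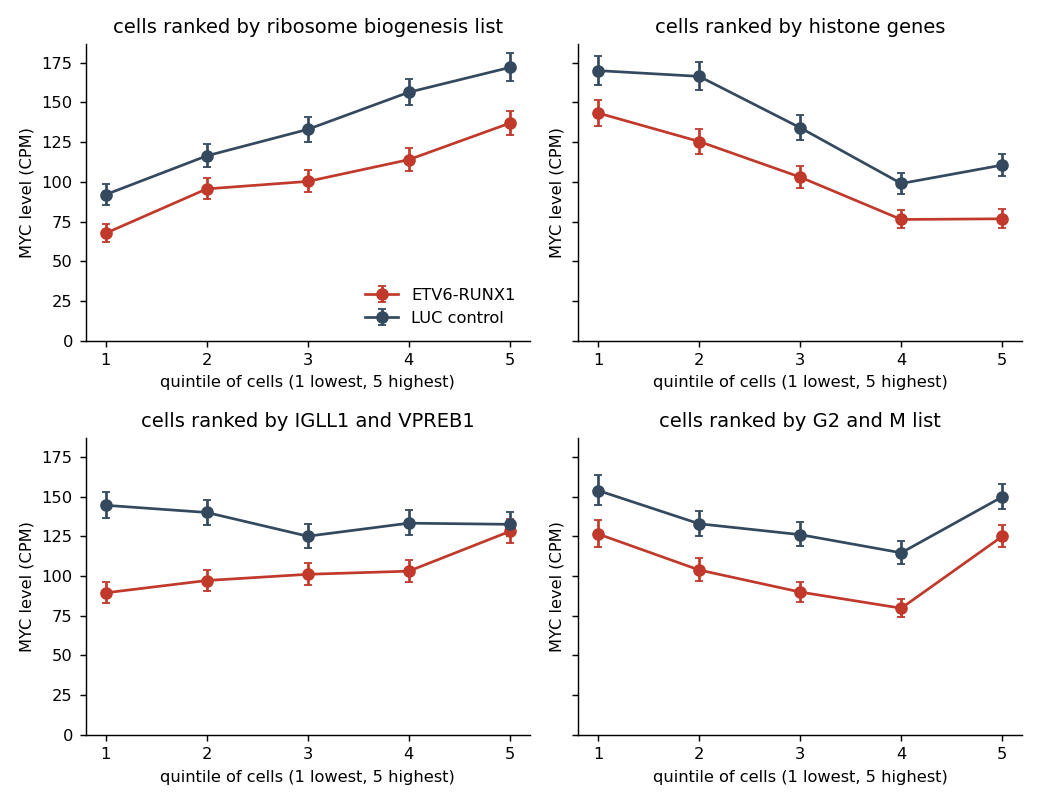
MYC level in CPM (vertical axis, linear from 0) in quintiles of cells ranked within each library by the ribosome biogenesis list, histone genes, IGLL1 and VPREB1, or the G2 and M list, ETV6-RUNX1 in red and LUC control in dark blue. Bars are 95% counting intervals. The lines climb for ribosome biogenesis, drop for histone genes, part for IGLL1 and VPREB1, and are high at both ends for the G2 and M list.

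Gene by gene, likeness to MYC was measured as Pearson r across thinned cells of log2(UMI + 1), over the 1889 other genes at 50 CPM or more in both libraries. The cells share a library, a depth and a composition, MYC has about 1 UMI per cell, and single values of r are low. The median r was 0.00570 in ETV6-RUNX1 cells and 0.00656 in LUC control cells, and 90% of genes lay between -0.0488 and 0.0712 with ETV6-RUNX1 and between -0.0466 and 0.0658 in the control. An r of 0.1 or more in both libraries was found for 6 genes (0.318%), and of -0.1 or less in both for 6 (0.318%). The r of a gene in one library and in the other had a Pearson correlation of 0.570 and a Spearman correlation of 0.488 over the 1889 genes, which are not independent replicates.

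The genes most like MYC included several factors of the nucleolus. NOP16, a nucleolar protein of large-subunit assembly, had an r of 0.189 with ETV6-RUNX1 and 0.174 in the control. DDX21, an RNA helicase of rRNA transcription and processing, had 0.171 with ETV6-RUNX1 and 0.136 in the control. TAF1D, a subunit of the RNA polymerase I selectivity factor, had 0.156 with ETV6-RUNX1 and 0.132 in the control, and NOP58, a core protein of box C/D snoRNPs, had 0.108 with ETV6-RUNX1 and 0.133 in the control. CCDC85B had 0.154 with ETV6-RUNX1 and 0.102 in the control, and RAN, the GTPase of nuclear transport, had 0.102 with ETV6-RUNX1 and 0.106 in the control.

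The next 6 by the lower of both values of r lay just under 0.1. They were TWISTNB and CD3EAP, both subunits of RNA polymerase I, the ribosome assembly factor MRTO4, the fatty-acid carrier FABP5, the tRNA methyltransferase subunit TRMT10C and CCNB1. The order is loose: another random thinning found 5 of these 12 again, and NOP16 came first in both. RAN and FABP5 have near-identical pseudogenes with which reads may be shared, so their values are less certain. In cells grouped by thinned MYC UMIs (0, 1, 2, and 3 or more), NOP16 was at 100.4, 137, 155 and 159 CPM with ETV6-RUNX1 and at 123, 145, 173 and 190 CPM in the control.

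The genes least like MYC included several of DNA synthesis. HIST1H4C had an r of -0.184 with ETV6-RUNX1 and -0.182 in the control. The linker histone genes HIST1H1D (ETV6-RUNX1 -0.138, LUC control -0.129) and HIST1H1C (ETV6-RUNX1 -0.141, LUC control -0.110) followed, with KIAA0101, the PCNA-binding factor (ETV6-RUNX1 -0.115, LUC control -0.127), the replication checkpoint protein gene CLSPN (ETV6-RUNX1 -0.107, LUC control -0.108) and the nuclear RNA MALAT1 (ETV6-RUNX1 -0.101, LUC control -0.147). HIST1H1B, DUT, ATAD2, TYMS, CDCA5 and HIST2H2AC completed the 12. Across cells with 0, 1, 2, and 3 or more MYC UMIs, HIST1H4C was at 4708, 3810, 3153 and 2907 CPM with ETV6-RUNX1 and at 4954, 3894, 3459 and 3437 CPM in the control.

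These genes varied along the cell cycle too. NOP16 was also low in bins 4 and 5, at 81.7 and 82.6 CPM with ETV6-RUNX1 and 130 and 111 CPM in the control. In bin 1 it was at 141 CPM with ETV6-RUNX1 and 144 CPM in the control. With each value centred on its cell-cycle bin, NOP16 kept an r of 0.161 with ETV6-RUNX1 and 0.163 in the control. HIST1H4C had -0.141 with ETV6-RUNX1 and -0.157 in the control after the same centring, but only 1 gene, not 6, then had an r of -0.1 or less in both libraries. The positive count was 5.

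The lists of MYC-linked functions were also set beside MYC across cells. Of 28 ribosome biogenesis genes, 27 had an r above 0 in both libraries (all genes, 40.5%), with a median of 0.0657 with ETV6-RUNX1 and 0.0590 in the control. Above 0 in both were also 15 of 17 chaperonins and folding factors (CCT2, ETV6-RUNX1 0.0795, LUC control 0.0661), 15 of 21 genes of mitochondrial import and translation (TOMM40, ETV6-RUNX1 0.119, LUC control 0.0725) and 13 of 17 translation factors (EIF3B, ETV6-RUNX1 0.0846, LUC control 0.0802). For the 10 glycolysis genes the number was 5, and their median was -0.00153 with ETV6-RUNX1 and 0.00459 in the control. Of 13 genes of nucleotide and polyamine synthesis, 8 were above 0 in both libraries, led by AMD1 (ETV6-RUNX1 0.116, LUC control 0.0510) and NME1 (ETV6-RUNX1 0.0582, LUC control 0.0791), which can share reads with NME2, while TYMS (ETV6-RUNX1 -0.0730, LUC control -0.0924) was among 5 below 0 in both.

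The S phase list was weighted the other way, with 12 of 18 genes below 0 in both libraries (all genes, 26.3%). The median of the list moved to about 0 once values were centred on cell-cycle bins, at 0.000461 with ETV6-RUNX1 and 0.00393 in the control. The G2 and M list was split, with 8 of 22 above 0 in both libraries (all genes, 40.5%) and 8 below 0 in both. HN1 (ETV6-RUNX1 0.143, LUC control 0.0576) and CDC20 (ETV6-RUNX1 0.134, LUC control 0.0607) were above, and MKI67 (ETV6-RUNX1 -0.0472, LUC control -0.0878) below. Of 8 integrated stress response genes 4 were below 0 in both, DDIT3 among them (ETV6-RUNX1 -0.0899, LUC control -0.0505). Above 0 in both were 2 of the 8, SLC3A2 among them (ETV6-RUNX1 0.0245, LUC control 0.0480). Of 6 immediate-early genes 2 were below 0 in both, JUND and FOSB, and 0 were above 0 in both.

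The remaining lists had few genes at 50 CPM, so their counts say little beside the 40.5% of all 1889 genes above 0 in both libraries. Above 0 in both libraries were 4 of 6 B-lineage regulators (LEF1, ETV6-RUNX1 0.0799, LUC control 0.0171), 3 of 9 genes of pre-B-cell receptor and IL7 receptor signalling, 2 of 3 genes known to be repressed by MYC, 1 of 5 genes of cholesterol synthesis (FDFT1, ETV6-RUNX1 0.0625, LUC control 0.0878) and 1 of 5 G1 cyclins, CDKs and inhibitors. CD79A, the receptor's signalling chain, had an r of 0.0315 with ETV6-RUNX1 and -0.0837 in the control. Of 4 partners and turnover factors of MYC, 0 were above 0 in both. In the MYC network MYCBP2 had 0.0457 with ETV6-RUNX1 and 0.00563 in the control, and MLXIP had 0.0126 with ETV6-RUNX1 and 0.0160 in the control.

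The same lists were compared between the libraries, where 63.8% of all 5954 measured genes had a log2 ratio below 0. Below 0 were 45 of 49 ribosome biogenesis genes (median -0.12), 18 of 19 chaperonins and folding factors (-0.13), 22 of 25 genes of nucleotide and polyamine synthesis (-0.12), 21 of 24 of mitochondrial import and translation (-0.12), 15 of 17 glycolysis genes (-0.11), 16 of 19 translation factors (-0.08) and 13 of 16 of cholesterol synthesis (-0.16). In these 7 lists 0 genes reached 1.5-fold. Among all measured genes only 0.655% passed downward and 0.185% upward, so a count of 0 in lists of this size says little. NOP16 was at 129 CPM with ETV6-RUNX1 and 145 CPM in the control, a log2 ratio of -0.17 (-0.22 to -0.12). C1QBP, a mitochondrial protein of the ribosome biogenesis list, was at 552 CPM with ETV6-RUNX1 and 671 CPM in the control (-0.28, -0.31 to -0.26), and HSPA8, the constitutive HSP70, at 763 CPM with ETV6-RUNX1 and 927 CPM in the control (-0.28, -0.30 to -0.26).

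The median log2 ratios of the other lists lay on both sides of 0. They were -0.05 for S phase, -0.03 for G2 and M, -0.04 for partners and turnover factors, -0.03 for G1 cyclins, CDKs and inhibitors, -0.03 for pre-B-cell receptor and IL7 receptor signalling, -0.08 for the integrated stress response, 0.04 for immediate-early genes, 0.01 for B-lineage regulators and 0.06 for genes known to be repressed by MYC. Past 1.5-fold in these 9 lists were 3 of 18 genes of the receptor list, LAT2, CD72 and IGLL1, all lower. Among all 5954 measured genes, 0.655% passed downward and 0.185% upward. Other scalings add 0.04 to 0.05 to every log2 ratio, which brings the medians of G2 and M, partners and turnover factors, G1 cyclins, receptor signalling and the MYC network above 0.

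The genes most like MYC across cells were also set against their level between the libraries, which the choice did not use. Of the 12 most positive genes 11 had a log2 ratio below 0, with a median of -0.14, against -0.04 for all 1889 genes, of which 67.5% were below 0. Of the 12 most negative 8 were above 0, with a median of 0.06. HIST1H1D was at 83.4 CPM with ETV6-RUNX1 and 66.8 CPM in the control (0.32). FABP5 was at 758 CPM with ETV6-RUNX1 and 913 CPM in the control (-0.27).

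The promoters of these genes were searched for CACGTG, the E-box form to which MYC and MAX bind best, which reads the same on both strands. RefSeq windows of 300 bases (250 before the start and 50 after, build GRCh38.p14) held it in 2030 of 27305 genes, or 7.43%. Among the genes set beside MYC, 1591 of 1889 were matched to a window and 185 of these (11.6%) held it. Of the 12 most positive, 10 were matched and 4 held it (40.0%), and of the 12 most negative, 10 were matched and 0 held it. In the ribosome biogenesis list 6 of 23 did (26.1%). The share in the most positive rests on few genes and a loose pick, since another random thinning found only 5 of the 12 again. RAN, MRTO4, CCNB1 and CD3EAP, which held the motif, ranked 6, 8, 11 and 12. With the other thinning CCNB1 had an r of 0.107 with ETV6-RUNX1 and 0.0553 in the control. The 4 windows are shown because they hold this motif, given in capitals, in genes that went with MYC across cells.
RAN, chr12:130871816-130872115, plus strand: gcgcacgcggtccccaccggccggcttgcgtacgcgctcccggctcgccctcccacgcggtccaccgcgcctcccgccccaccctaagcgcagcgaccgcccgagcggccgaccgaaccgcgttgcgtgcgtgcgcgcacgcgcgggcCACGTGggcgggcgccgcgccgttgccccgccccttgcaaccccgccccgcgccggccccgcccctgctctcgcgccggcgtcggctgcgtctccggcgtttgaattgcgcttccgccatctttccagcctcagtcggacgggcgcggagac
MRTO4, chr1:19251555-19251854, plus strand: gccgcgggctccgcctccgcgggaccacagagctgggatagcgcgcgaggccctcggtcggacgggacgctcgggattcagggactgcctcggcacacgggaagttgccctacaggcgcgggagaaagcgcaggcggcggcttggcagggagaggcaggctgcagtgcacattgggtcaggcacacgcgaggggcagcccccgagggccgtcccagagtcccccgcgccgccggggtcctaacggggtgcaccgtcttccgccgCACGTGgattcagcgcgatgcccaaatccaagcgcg
CCNB1, chr5:69166900-69167199, plus strand: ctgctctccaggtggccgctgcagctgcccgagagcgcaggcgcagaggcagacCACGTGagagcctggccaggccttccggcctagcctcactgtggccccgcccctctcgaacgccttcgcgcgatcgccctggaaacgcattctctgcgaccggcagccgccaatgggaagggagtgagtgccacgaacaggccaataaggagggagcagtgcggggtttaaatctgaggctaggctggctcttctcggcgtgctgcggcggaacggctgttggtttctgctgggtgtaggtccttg
CD3EAP (POLR1G in RefSeq), chr19:45406394-45406693, plus strand: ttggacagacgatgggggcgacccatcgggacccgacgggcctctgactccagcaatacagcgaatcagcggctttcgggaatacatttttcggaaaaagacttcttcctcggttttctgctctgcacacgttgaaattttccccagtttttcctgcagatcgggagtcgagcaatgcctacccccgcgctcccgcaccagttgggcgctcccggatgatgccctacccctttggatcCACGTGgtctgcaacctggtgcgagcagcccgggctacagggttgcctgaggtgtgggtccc

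The motif begins 102 bases before the start in RAN, 196 before it in CCNB1 and 12 before it in CD3EAP, and 14 bases past it in MRTO4. NOP16, DDX21 and TAF1D, the most MYC-like genes, do not hold these letters in their windows. A match is a description of the sequence, not of binding.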

How the data were processed

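Per the submitters' processing notes, the authors used Cell Ranger 3.0.2 and genome build hg19. The deposited values are whole-number UMI counts for each gene in each barcode, not normalized. Per the labels' protocols, poly-A transcripts were captured on the 10X system after dead-cell removal. How reads of overlapping genes were assigned was not stated there.

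Barcodes entered if they held 1000 or more genes and no more than 10% mitochondrially encoded UMIs, which left 2267 of 2503 with ETV6-RUNX1 and 1870 of 2203 in the control. Doublets were left in. Scrublet in scanpy 1.11.5 (expected rate 0.05) called 14 kept ETV6-RUNX1 and 16 kept LUC control cells. UMIs were summed over kept cells and scaled to CPM. Ratios have exact Poisson intervals and shares exact (Clopper-Pearson) ones. With 1 library a group no test was made.

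Distributions, cell-cycle scores (scanpy, no use of MYC) and r used cells thinned to 8700 UMIs, leaving out 224 ETV6-RUNX1 and 84 LUC control cells. Cell-cycle bins, quintiles and the genes chosen by r were set after values had been seen, and the members and all 17 lists were chosen with earlier results of these data known. Named genes are MYC, its network, the 12 genes with the highest lower r and the 12 with the lowest higher r over both libraries, and in each list those with the largest mean r or log2 ratio. TMM came from edgeR 4.0.16. Ratios, thinning and r were checked on simulated data. Promoters came from RefSeq, matched by gene name. No hg19 annotation was used, so no position of MYC is given.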

Additional observations from a re-analysis of the deposited data

Results flagged for a closer look

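The relation of MYC to the summed UMIs of the surrogate light chain genes ran in opposite directions in the libraries. In ETV6-RUNX1 cells the quintile with the most IGLL1 and VPREB1 UMIs had more MYC than the quintile with the fewest, by a log2 difference of 0.52. In LUC control cells it had less, by -0.12. Taken singly, IGLL1 had an r with MYC of 0.0820 with ETV6-RUNX1 and -0.0413 in the control, while VPREB1 was above 0 in both, at 0.0518 with ETV6-RUNX1 and 0.0341 in the control. The difference between the libraries was not tested, with 1 library of each. The control value is small, its interval comes to within 0.01 of 0, and both values moved with the random thinning, though neither changed direction.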

How the results depend on the processing

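Over 376 alternative settings of 68 results, 320 stayed within the interval of the value (or 1.5 times a count), 52 moved and 4 changed the sign of a value whose interval did not hold 0. The interval is that of counting, except for list medians (253 settings), where it is that of a median over the list's genes. For the variance over the mean it is a chi-square interval of a sample variance, which takes values as normally distributed. List medians changed sign in 46 settings, the 4 included, and no other value did. No paired analysis was possible because each group has 1 library. The log2 ratio of MYC moved to -0.18 in cells called G1 and to -0.32 with phases weighted equally; scaling, cell filters, doublets and shared barcodes left it within its interval. Depth limits what single cells show. At 5000 UMIs per cell 65.2% of ETV6-RUNX1 and 56.3% of LUC control cells had no MYC UMI, and without thinning 36.8% of all kept ETV6-RUNX1 and 24.5% of all kept LUC control cells. In cells deep enough to thin these were 34.2% of ETV6-RUNX1 and 23.2% of LUC control cells. The variance over the mean was 1.38 with ETV6-RUNX1 and 1.37 in the control at 5000 UMIs.

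The genes at an r of 0.1 or more in both libraries numbered 1 at 5000 UMIs and 63 from UMIs before thinning, and at -0.1 or less 1 and 15. Those at -0.1 or less numbered 3 at a floor of 200 CPM, and 1 after centring on cell-cycle bins. Scaling by TMM, by median of ratios and by totals without ribosomal protein and mitochondrial genes gave list medians of -0.084, -0.084 and -0.078 for ribosome biogenesis, of -0.094, -0.094 and -0.088 for chaperonins, and of 0.013, 0.012 and 0.019 for G2 and M. The last of these scalings gave -0.076 for nucleotide synthesis and -0.072 for mitochondrial import. They raise every ratio by 0.04 to 0.05, and the count of genes at least 1.5-fold higher was 17 under each.

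Median r from UMIs before thinning was 0.113 with ETV6-RUNX1 and 0.109 in the control for ribosome biogenesis, 0.0555 and 0.0641 for translation factors, 0.0664 and 0.0567 for chaperonins, and 0.0795 and 0.0570 for mitochondrial import, and in the control 0.0135 for G1 cyclins. At 5000 UMIs the control had 0.0376, 0.00520 and 0.0227 for ribosome biogenesis, translation factors and chaperonins. The S phase median was 0.00801 in the control with another thinning, and after centring on bins 0.000461 with ETV6-RUNX1 and 0.00393 in the control. The G2 and M median with ETV6-RUNX1 was 0.0310 after centring on called phases.

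Bins 4 and 5 over 1 and 2 gave -0.40 with ETV6-RUNX1 at 5000 UMIs, and bin 6 over 4 and 5 gave 0.56 there and 0.34 in the control with another thinning. The contrast by IGLL1 and VPREB1 was 0.32 with ETV6-RUNX1 and -0.27 in the control with another thinning, and -0.28 in the control from thinned MYC UMIs. The cause of these moves was not tested.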

Other observations

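MYC was also compared between quintiles of cells by other measures. By the share of mitochondrially encoded UMIs, the top quintile was at 97.5 CPM and the bottom at 115 CPM with ETV6-RUNX1, and at 115 and 150 CPM in the control. The log2 differences were -0.24 (-0.38 to -0.10) with ETV6-RUNX1 and, for the control, -0.39 (-0.52 to -0.27). By 83 ribosomal protein genes the differences were -0.20 (-0.33 to -0.06) in ETV6-RUNX1 cells and -0.46 (-0.58 to -0.34) in LUC control cells. By the glycolysis list they were -0.02 (-0.16 to 0.13) with ETV6-RUNX1 and, for the control, 0.08 (-0.04 to 0.20). By the S-phase list they were -0.56 (-0.71 to -0.42) with ETV6-RUNX1 and, for the control, -0.19 (-0.31 to -0.06).

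Barcodes with over 50% mitochondrially encoded UMIs were left out of the above, except where the log2 ratio of MYC was taken over all barcodes (-0.37). They numbered 157 with ETV6-RUNX1 and 205 in the control and held 6 MYC UMIs with ETV6-RUNX1 and 5 in the control. Scaled as CPM to the UMIs of all other genes, that is 229 (83.9 to 498) with ETV6-RUNX1, against 109 in kept cells, and 204 (66.3 to 476) for the control, against 141, and the intervals hold the values of kept cells.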
